A study of Mus musculus with 18 samples.

Results

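The lymphoid priming genes are 32 genes of early B and T cell development, chosen by name from a list of transcription factors, receptor components, adaptors and surface proteins. They were chosen with earlier results of these data known. All 32 were found among the 29437 genes of the count table, and 28 of them had enough reads to be among the 16325 genes tested. By role they were 9 transcription factors and chromatin regulators, 9 genes of the pre-B and B cell receptor and its signalling, 4 genes of T cell receptor signalling, 8 surface receptors and ligands and 2 actin-binding proteins. Pax5, Vpreb2, Igll1 and Cd2 had too few reads to be tested, and their reads are given below all the same.

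Poly(A) RNA was sequenced from bone marrow populations of Helios knockout (KO) and wild-type (WT) mice aged 10 weeks, with 3 mice per genotype. Helios, the product of Ikzf2, is a DNA-binding zinc finger protein related to Ikaros. MPP4, MPP3 and LT-HSC were all sorted as lineage-negative, Sca1-positive and Kit-positive cells. MPP4, multipotent progenitors with a lymphoid bias, were positive for CD48 and Flt3 and negative for CD150. MPP3, with a myeloid bias, had the same gate but were Flt3-negative, and LT-HSC, the long-term stem cells of the blood, were CD48-negative and CD150-positive. This gave 6 groups of 3 libraries, MPP4 KO, MPP4 WT, MPP3 KO, MPP3 WT, LT-HSC KO and LT-HSC WT. The sources used here do not give which part of Ikzf2 the KO allele lacks or whether the mice carried other alleles.

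Lymphoid priming is the low-level transcription of lymphoid genes in progenitors that still have other fates open. It is known to set in with rising Flt3 in multipotent progenitors, under factors of the Ikaros family, E proteins and PU.1, and precedes the commitment to B cells by Ebf1 and Pax5 and to T cells by Notch signals and Tcf7. The pre-B cell receptor, built from an immunoglobulin heavy chain with the surrogate light chains Vpreb and Igll1 and the signalling pair Cd79a and Cd79b, appears only after that commitment.

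Library totals lay between 21053050 and 45410959 counts. Fewer genes were detected by at least 1 read in library 1 of each group (17362 to 18896) than in library 2 (19185 to 19757) or library 3 (19700 to 20272). Ikzf2 was lower in all KO libraries than in the WT libraries of the same population. It had 3.55, 11.14 and 10.21 CPM in MPP4 KO against 37.13, 34.05 and 27.07 CPM in MPP4 WT, and its log2 fold change was -1.98 ± 0.33 in MPP4, -1.24 ± 0.32 in MPP3 and -2.07 ± 0.33 in LT-HSC (edgeR quasi-likelihood test, Benjamini-Hochberg adjusted p = 0.0656, 0.66 and 0.0259). In MPP3, transcripts of mature B and plasma cells were high in KO 1, WT 1 and WT 2, where 14 marker genes summed to 3163, 3640 and 3978 CPM, against 260.7 to 409.7 CPM in the other 3 libraries. Among LT-HSC libraries, neutrophil genes summed to 519.7 to 571.4 CPM in KO, against 437.4 CPM in WT 1, 640.2 CPM in WT 2 and 1034 CPM in WT 3. The 14 listed genes of T and NK cells, 13 of them in the count table, summed to 15.21 to 17.13 CPM in MPP4 KO and 15.07 to 25.53 CPM in MPP4 WT, to 18.11 to 25.26 CPM in MPP3 KO and 27.65 to 29 CPM in MPP3 WT, and to 20.59 to 26.27 CPM in LT-HSC KO and 9.724 to 23.21 CPM in LT-HSC WT. Among them Cd3e, of the T cell receptor complex, was at 0 to 0.22 CPM in all 18 libraries, while Gzmb, a granule protease of T and NK cells, was at 5.69 to 9.83 CPM in MPP3 KO and 4.92 to 10.16 CPM in MPP3 WT, and at no more than 0.04 CPM in any other library.

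Levels are CPM, the count of a gene relative to the TMM-scaled total of its library, a log2 fold change is followed by ± its standard error, and a gene is said to rise or fall only at an adjusted p under 0.05. A p-value measures the spread between these libraries, 3 per group. In sorted bulk RNA, fewer cells that transcribe a gene and less RNA per cell cannot be told apart.

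In WT cells most of the genes were highest in MPP4. By group mean, 22 of the 28 tested genes peaked in MPP4, 4 in MPP3 (Tcf7, Lef1, Cd79a and Vpreb3) and 2 in LT-HSC (Foxo1 and Ltb). Between MPP4 and LT-HSC, 18 of 28 rose, where 14.1% of all tested genes did, and 1 fell, where 13.1% did (27.2% in either direction, edgeR quasi-likelihood test). The median log2 difference of the 28 genes was 2.10, beside -0.01 over all tested genes. Between MPP3 and LT-HSC, 10 rose and 4 fell (9.68% and 7.66% of all tested genes), with a median of 1.15. Between MPP4 and MPP3, 11 rose and 1 fell (2.19% and 2.62%), with a median of 0.69. As the genes were chosen with earlier results of these data known, these shares are a description and not a test.

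**Figure D1:**
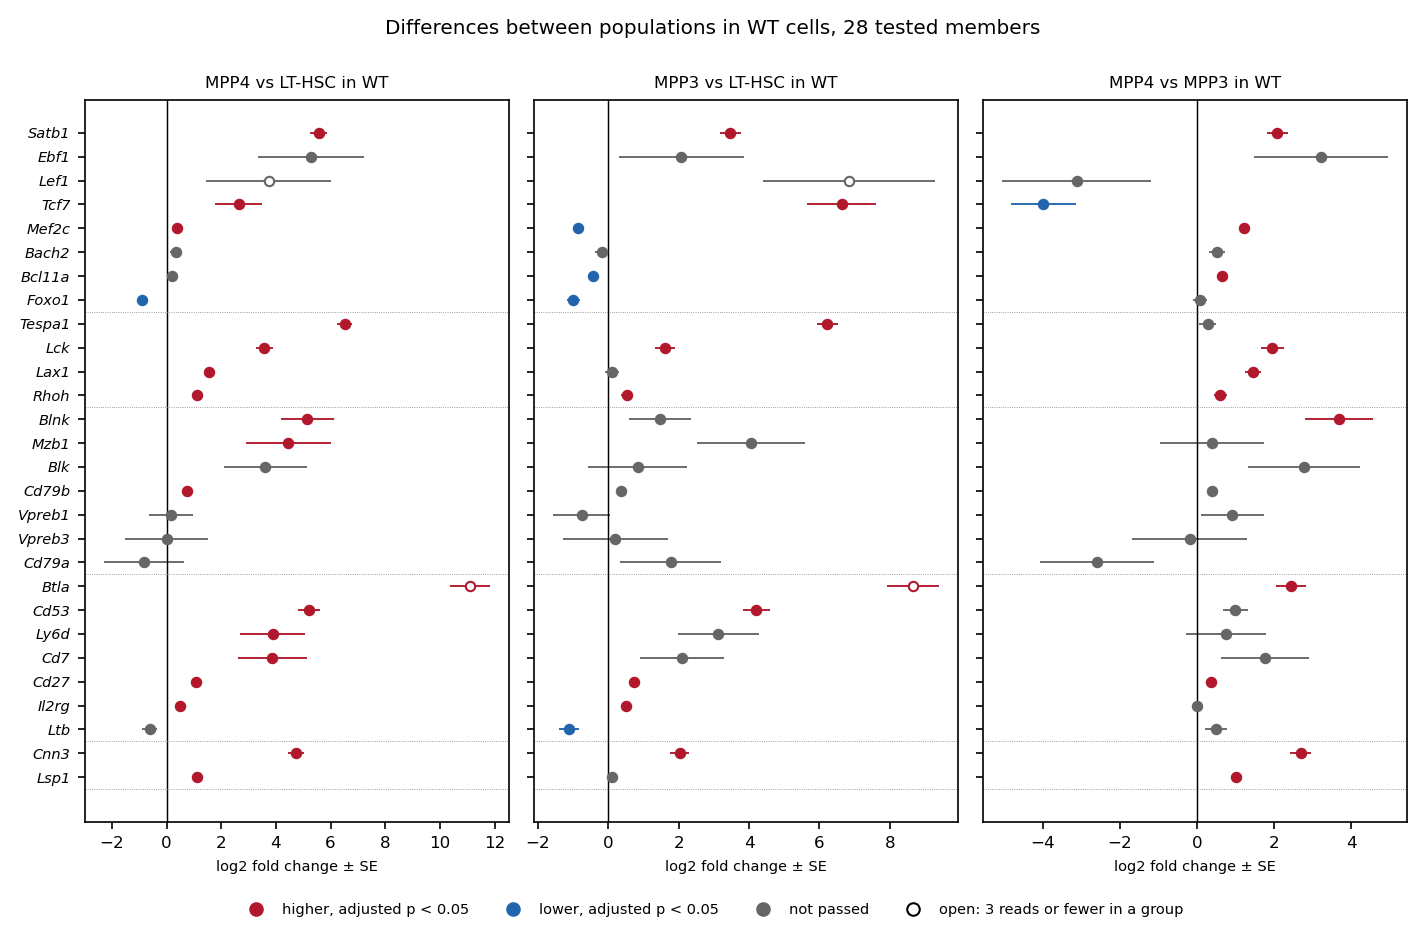
Log2 fold change between populations in WT cells for each of the 28 tested genes, with its standard error, by role from transcription factors at the top to actin-binding proteins at the bottom. Red points rose and blue points fell at an adjusted p under 0.05, and open points had 3 reads or fewer in a group, so that their position depends on the model. In the first panel 18 genes lie to the right as red points and Foxo1 alone is blue, while Tcf7 is red in the first panel and blue in the last.

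Satb1, a chromatin organiser that primes lymphoid genes in stem and progenitor cells, was highest in MPP4, lower in MPP3 and lowest in LT-HSC. Its WT libraries had 594, 464 and 520 CPM in MPP4, 139, 105 and 127 CPM in MPP3, and 5.58, 9.67 and 17.6 CPM in LT-HSC, with no overlap between the populations. Its log2 difference was 5.56 ± 0.32 for MPP4 over LT-HSC, 3.47 ± 0.29 for MPP3 over LT-HSC and 2.09 ± 0.27 for MPP4 over MPP3 (edgeR adjusted p = 4.26e-09, 7.65e-07 and 0.000143). Tcf7, the factor TCF-1 of early T cell development, differed from this order. It had 1.30, 4.17 and 1.78 CPM in MPP4 WT, 50.9, 27.8 and 36.7 CPM in MPP3 WT, and 0, 0 and 0.99 CPM in LT-HSC WT. Every MPP3 WT library stood above every MPP4 and LT-HSC WT library, and the log2 difference was -3.98 ± 0.84 for MPP4 against MPP3 and 6.63 ± 0.97 for MPP3 over LT-HSC (edgeR adjusted p = 0.00855 and 0.000221). Some T and NK cell markers were also high in MPP3 WT. Trbc1, a T cell receptor constant region, had 0.48, 0.60 and 0.33 CPM in MPP4 WT, 6.66, 6.51 and 7.01 CPM in MPP3 WT, and 0.04, 0.13 and 0 CPM in LT-HSC WT. Trbc2, another constant region, had 3.09, 2.55 and 3.45 CPM in MPP4 WT and 3.39, 2.52 and 2.6 CPM in MPP3 WT. Of the 7 tested markers of these cells, 2 fell in MPP4 against MPP3 and 0 rose. Their log2 differences were above 0 for 4 and below 0 for 3, with a median of 0.10. In MPP3 over LT-HSC 3 rose and 1 fell. The part of these markers in the Tcf7 levels was not tested. Lef1, the relative of Tcf7, had 41 reads over the MPP3 WT libraries and 0 in LT-HSC WT, at least 17.1-fold higher with a floor of 3 reads over the group, and did not pass (edgeR adjusted p = 0.0694).

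The other transcription factors showed smaller differences. Mef2c, which favours lymphoid over myeloid output in progenitors, had 618, 534 and 472 CPM in MPP4 WT, 231, 254 and 210 CPM in MPP3 WT, and 440, 370 and 445 CPM in LT-HSC WT. It was lowest in MPP3 without overlap, and fell in MPP3 against LT-HSC by 0.85 ± 0.11 on the log2 scale (edgeR adjusted p = 7.88e-05). Bcl11a, required for B cell development, likewise fell in MPP3 against LT-HSC by 0.43 ± 0.10 and was higher in MPP4 than in MPP3 by 0.64 ± 0.10 (edgeR adjusted p = 0.00864 and 0.001). Foxo1, which acts on Rag and Il7r genes in B cell precursors, was the gene that fell in both progenitors, with means of 27.1 ± 3.85 CPM in MPP4 WT, 25.5 ± 6.15 CPM in MPP3 WT and 50.7 ± 7.13 CPM in LT-HSC WT (SD, n = 3). Bach2, a repressor in lymphoid cells, did not pass in any of the 3 comparisons. The B lineage factor Ebf1 reached 0.63, 2.65 and 1.20 CPM in MPP4 WT and at most 0.47 CPM in any MPP3 or LT-HSC WT library, and did not pass. Pax5 had 1 read over the MPP4 WT libraries, 1 over MPP3 WT and 12 over LT-HSC WT, all 12 of them in WT 3.

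All 4 genes of T cell receptor signalling were higher in MPP4 than in LT-HSC. Tespa1, which acts in thymocyte receptor signalling, had 140, 128 and 90.5 CPM in MPP4 WT, 115, 101.19 and 77.9 CPM in MPP3 WT, and 1.01, 1.33 and 1.5 CPM in LT-HSC WT. The MPP4 and MPP3 libraries overlapped, and both stood far above LT-HSC, by 6.51 ± 0.29 and 6.23 ± 0.29 on the log2 scale (edgeR adjusted p = 3.51e-10 and 1.24e-09). Lck, the kinase that starts T cell receptor signalling, had 228, 161 and 118 CPM in MPP4 WT, 58.0, 31.3 and 40.9 CPM in MPP3 WT, and 13.4, 18.9 and 10.4 CPM in LT-HSC WT. It was higher in MPP4 than in MPP3 and higher in MPP3 than in LT-HSC, without overlap. The log2 difference of Lck was 3.58 ± 0.31 for MPP4 over LT-HSC (edgeR adjusted p = 3.22e-07). Lax1, an adaptor that dampens receptor signalling, set MPP4 apart. It had 135, 127 and 84.2 CPM in MPP4 WT, 44.6, 42.1 and 39.1 CPM in MPP3 WT, and 39.0, 37.3 and 40.7 CPM in LT-HSC WT. Its log2 difference was 1.56 ± 0.20 for MPP4 over LT-HSC and 1.46 ± 0.20 for MPP4 over MPP3 (edgeR adjusted p = 2.53e-05 and 0.000268), and 0.10 ± 0.20 for MPP3 over LT-HSC (edgeR adjusted p = 0.781).

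Of the 7 tested surface receptors and ligands, 6 rose in MPP4 over LT-HSC, as did both actin-binding proteins. Btla, an inhibitory receptor of lymphocytes, had 32.8, 35.2 and 31.2 CPM in MPP4 WT, 8.82, 4.83 and 4.66 CPM in MPP3 WT, and 0.04, 0 and 0 CPM in LT-HSC WT. With 2802 reads in MPP4 WT and 1 read in LT-HSC WT, the MPP4 level was 3190 times that of LT-HSC (exact 95% interval 572 to 126000, for counting error alone, as the reads carry no molecular identifiers). Cd53, a tetraspanin of white blood cells, had 521, 436 and 475 CPM in MPP4 WT, 217, 242 and 255 CPM in MPP3 WT, and 11.8, 10.6 and 16.02 CPM in LT-HSC WT, with no overlap and a log2 difference of 5.21 ± 0.39 for MPP4 over LT-HSC (edgeR adjusted p = 7.94e-08). Cnn3, an actin-binding calponin, had 201, 153 and 126 CPM in MPP4 WT, 27.97, 24.6 and 21.5 CPM in MPP3 WT, and 4.33, 7.88 and 5.93 CPM in LT-HSC WT. It too was ordered without overlap, and the MPP4 level exceeded LT-HSC by 4.73 ± 0.30 on the log2 scale (edgeR adjusted p = 1.13e-08). Lsp1, a leukocyte actin-binding protein, had 420, 378 and 342 CPM in MPP4 WT, 201, 157 and 206 CPM in MPP3 WT, and 160, 181 and 182 CPM in LT-HSC WT, so that MPP4 stood apart while MPP3 and LT-HSC overlapped. Ltb, the lymphotoxin beta ligand, ran the other way, and fell in MPP3 against LT-HSC by 1.12 ± 0.29 (edgeR adjusted p = 0.0132).

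Of the 7 tested genes of the B cell receptor, 3 rose in MPP4 over LT-HSC and 0 in MPP3 over LT-HSC. Blnk, the adaptor below the pre-B cell receptor, had 48.7, 36.4 and 41.6 CPM in MPP4 WT, 2.01, 4.57 and 3.25 CPM in MPP3 WT, and 0.16, 2.04 and 1.35 CPM in LT-HSC WT. MPP4 exceeded LT-HSC by 5.15 ± 0.97 on the log2 scale (edgeR adjusted p = 0.000819). Cd79b was transcribed everywhere, at means of 73.4 ± 1.51, 55.7 ± 11.9 and 43.7 ± 4.66 CPM in MPP4, MPP3 and LT-HSC WT (SD, n = 3), while its partner Cd79a stayed between 0 and 1.38 CPM in all 18 libraries. Vpreb1, Vpreb3 and Igll1 had at most 1.37 CPM in any library, and Vpreb2 at most 0.17 CPM. Vpreb1 and Vpreb2 share 233 stretches of 50 bases, and both are uncertain for that reason. Mzb1, a plasma cell chaperone, passed between MPP4 and LT-HSC from low levels: 2.57, 3.41 and 1.60 CPM in MPP4 WT against 0, 0 and 0.30 CPM in LT-HSC WT (edgeR adjusted p = 0.0441). In MPP3, Mzb1 had 3.01 CPM in KO 1, 3.82 in WT 1 and 1.89 in WT 2, the libraries high in plasma cell transcripts, and 0.07 to 0.34 CPM in the other 3.

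Some of these calls rested on single libraries or on the pairing of populations by mouse. With the mouse as a block, Mzb1 no longer passed between MPP4 and LT-HSC (edgeR adjusted p = 0.0981), Ltb did as a lower gene (-0.65, adjusted p = 0.0171), and Cd53 did between MPP4 and MPP3 (1.0, adjusted p = 0.023). Between MPP4 and LT-HSC, Mzb1 was lost without LT-HSC WT 1 or 2 or any of the 3 MPP4 WT libraries (edgeR adjusted p = 0.0608 to 0.118). Ly6d was lost without LT-HSC WT 1 or 2 or MPP4 WT 1 (0.0596 to 0.0878), Tcf7 without LT-HSC WT 1 or 2 or MPP4 WT 2 (0.0764 to 0.14), Cd7 without LT-HSC WT 2 or 3 or MPP4 WT 1 or 2 (0.0548 to 0.125), and Mef2c without LT-HSC WT 2 or MPP4 WT 1 (0.0908 and 0.106). Between MPP4 and MPP3, Rhoh was lost without MPP4 WT 1 or any MPP3 WT library (0.0659 to 0.315), Blnk without MPP4 WT 1 or 3 or any MPP3 WT library (0.0502 to 0.106), Cd27 without MPP4 WT 1 or MPP3 WT 2 (0.0836 and 0.0776) and Tcf7 without MPP4 WT 1 (0.0566). Between MPP3 and LT-HSC, Rhoh was lost without any 1 of the 6 libraries (0.0565 to 0.151) and Ltb without MPP3 WT 3 (0.0603). Without the 3 MPP3 libraries high in plasma cell transcripts, which leaves 1 MPP3 WT library that is taken to vary like the other groups, 7 members passed between MPP4 and MPP3, and these were Satb1, Lck, Btla, Lax1, Mef2c, Cnn3 and Lsp1.

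The remaining genes moved less or were low. Cd27 had 289, 249 and 271 CPM in MPP4 WT, 212, 197 and 218 CPM in MPP3 WT, and 118, 130 and 133 CPM in LT-HSC WT, ordered without overlap. Il2rg was at 95.7 to 103 CPM in MPP4 WT and 97.5 to 102 CPM in MPP3 WT, which overlapped, and at 63.9 to 74.7 CPM in LT-HSC WT. Rhoh, a GTPase-like adaptor of T cell receptor signalling, had 265, 157 and 165 CPM in MPP4 WT, 143, 119 and 124 CPM in MPP3 WT, and 93.98, 96.3 and 79.6 CPM in LT-HSC WT, again without overlap.

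Compared per kb of transcript, the most abundant of the 32 genes in MPP4 WT were Mef2c and Cd27, a costimulatory receptor of lymphocytes, at 457 ± 62 and 404 ± 29.7 CPM per kb (SD, n = 3). Cd53, Lsp1 and Lck followed at 274 ± 24.3, 262 ± 27.1 and 244 ± 80.4 CPM per kb. These 3 neighbours differed by less than their spread. In MPP3 WT, Cd27 led with 314 ± 16.2 CPM per kb and Mef2c followed with 196 ± 18.6. In LT-HSC WT Mef2c led with 353 ± 35.1 and Cd27 followed with 191 ± 11.9 CPM per kb. The divisor was the deposited median transcript length of each gene, 1185 bases for Mef2c, 666 for Cd27, 693.5 for Lck and 8665 for Foxo1. The order depends on these lengths, and the transcripts made in these cells were not measured.

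**Figure D2:**
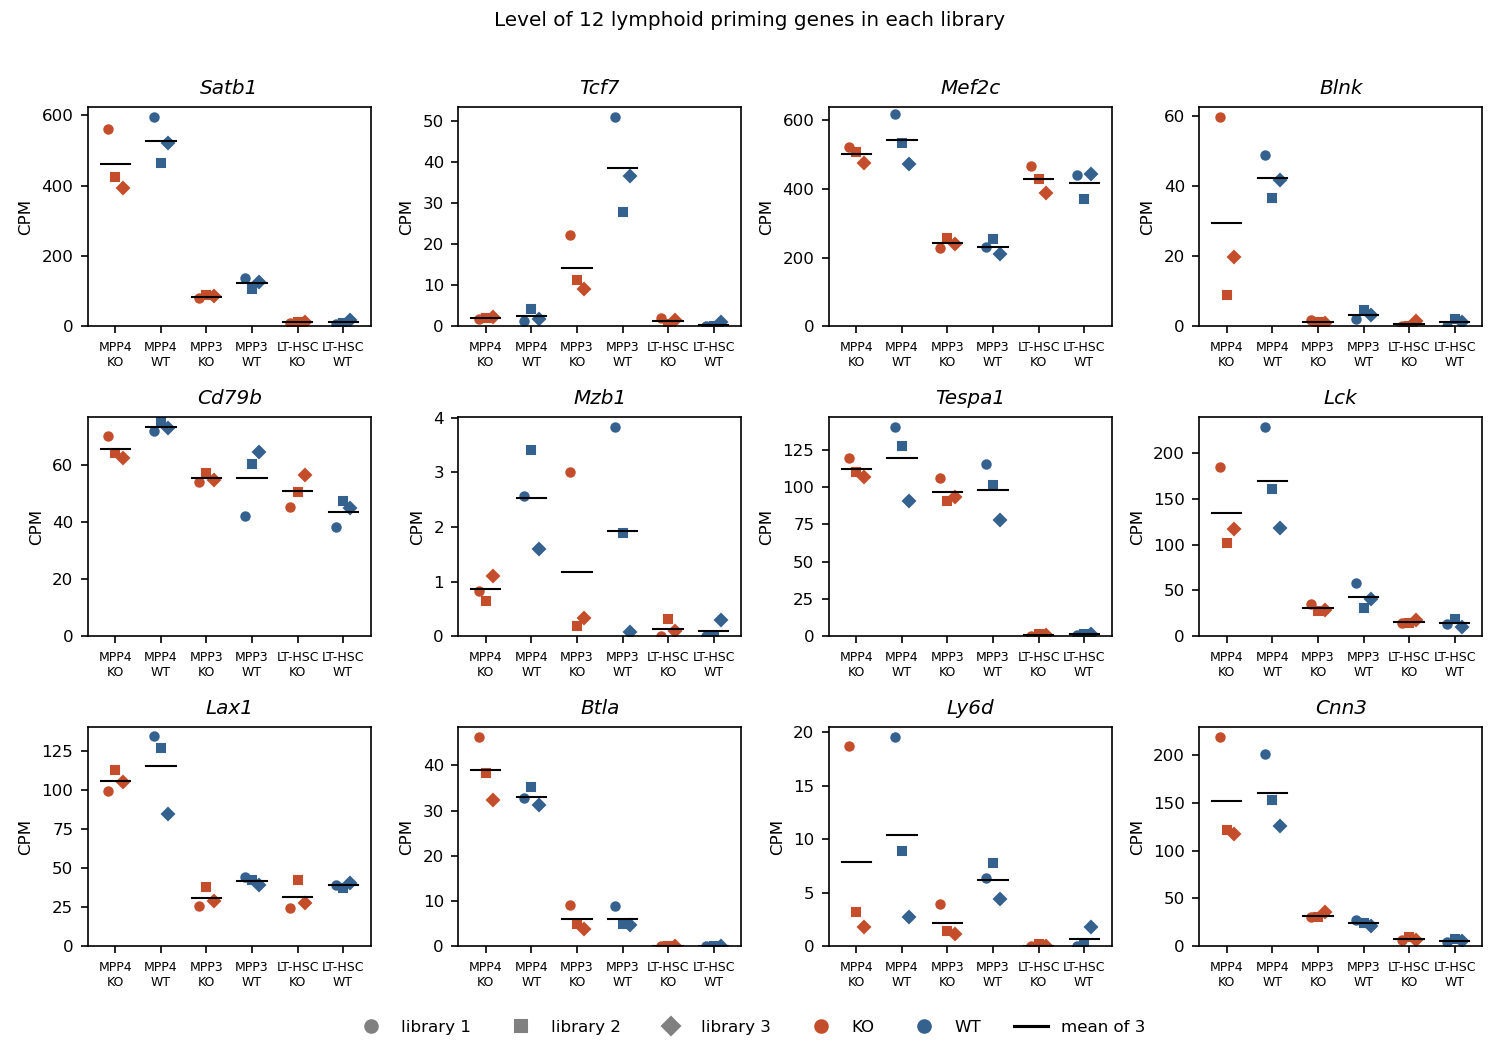
CPM of 12 of the genes in each of the 18 libraries, with MPP4, MPP3 and LT-HSC from left to right and KO (orange) left of WT (blue). The marker shape gives the library number and the black line the mean of 3. Tcf7 is high in MPP3 and near 0 elsewhere, Btla and Blnk are near 0 in LT-HSC, and the circle of library 1 is the highest of its group in MPP4 for Satb1, Lck, Ly6d and Cnn3 in both genotypes.

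Start windows are shown for genes that were higher together in MPP4 than in LT-HSC. RefSeq (GRCm38.p6) gives windows from 250 bases before to 50 bases after the start for 24 of the 32 genes. Shown are the 4 with a single window among those that were higher in MPP4 than in LT-HSC by a log2 difference of at least 2. Capitals mark matches on either strand to TGGGAA, the core bound by Ikaros family proteins, to CAGNTG, the E protein box, and to TGTGGT, the Runx core.
Btla (chr16:45224087-45224386, plus strand): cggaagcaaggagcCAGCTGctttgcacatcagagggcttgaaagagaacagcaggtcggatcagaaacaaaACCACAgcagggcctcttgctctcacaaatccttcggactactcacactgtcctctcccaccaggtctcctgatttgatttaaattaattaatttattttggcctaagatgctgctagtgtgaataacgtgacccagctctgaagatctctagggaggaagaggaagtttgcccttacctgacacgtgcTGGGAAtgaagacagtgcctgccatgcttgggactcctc
Cd53 (chr3:106790100-106790399, minus strand): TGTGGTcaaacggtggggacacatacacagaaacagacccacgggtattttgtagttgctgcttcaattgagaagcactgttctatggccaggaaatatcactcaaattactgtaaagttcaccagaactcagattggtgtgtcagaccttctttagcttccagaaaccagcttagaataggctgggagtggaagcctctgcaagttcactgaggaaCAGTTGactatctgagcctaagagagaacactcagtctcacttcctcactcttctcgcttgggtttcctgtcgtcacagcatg
Blnk (chr19:40994172-40994471, minus strand): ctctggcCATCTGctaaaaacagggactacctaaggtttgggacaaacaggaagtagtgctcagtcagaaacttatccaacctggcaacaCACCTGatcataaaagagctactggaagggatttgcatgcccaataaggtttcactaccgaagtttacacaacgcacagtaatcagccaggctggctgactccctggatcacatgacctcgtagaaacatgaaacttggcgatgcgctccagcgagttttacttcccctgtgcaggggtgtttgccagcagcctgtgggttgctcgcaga
Cnn3 (chr3:121426291-121426590, plus strand): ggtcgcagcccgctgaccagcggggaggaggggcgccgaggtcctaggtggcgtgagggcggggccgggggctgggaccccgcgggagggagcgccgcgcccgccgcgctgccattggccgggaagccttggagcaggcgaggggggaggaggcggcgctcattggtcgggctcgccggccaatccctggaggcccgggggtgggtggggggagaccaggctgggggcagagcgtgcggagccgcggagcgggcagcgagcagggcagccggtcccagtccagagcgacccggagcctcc
Btla held 1 match to each motif, Cd53 held 1 E protein box and 1 Runx core, Blnk held 2 E protein boxes, and none of the 3 motifs was found in the Cnn3 window, and no matches overlapped. TGGGAA was found at 8 of the 24 genes with a window (33.3%), beside 28.3% of 27025 genes with windows. CAGNTG was found at 16 (66.7%), beside 54.6%, and TGTGGT at 8 (33.3%), beside 18.9%. A gene was counted if any of its windows matched, and the 24 genes had 37 windows in all. Per window, TGGGAA was found in 11 of the 37, beside 25.6% of 32851 windows. CAGNTG was in 21, beside 51.4%, and TGTGGT in 9, beside 16.8%. A match is a run of letters and not a measured binding site.

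Between KO and WT, no lymphoid priming gene passed the test in any population. Ikzf2 itself did not pass in MPP4 or MPP3, although it was lower in every KO library, so a gene that did not pass may still differ. In MPP4, 0 of 28 passed (0.0123% of all tested genes did), in MPP3 0 of 28 (0.00613%) and in LT-HSC 0 of 28 (0.0613%), by edgeR's quasi-likelihood test and likewise by DESeq2 and by limma voom. At an unadjusted p under 0.05 by edgeR there were 0 of 28 in MPP4, 3 in MPP3 (Blk, Ebf1 and Lax1) and 5 in LT-HSC (Blk, Lef1, Il2rg, Ly6d and Lsp1), beside 4%, 4.59% and 11.2% of all tested genes. In the authors' deposited table the lowest adjusted p of a member was 1 in MPP4, 0.887 in MPP3 and 0.155 in LT-HSC.

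The signs were uneven. The log2 fold change was below 0 for 24 of 28 genes in MPP4 (85.7%), 23 in MPP3 (82.1%) and 17 in LT-HSC (60.7%), beside 48.5%, 48.8% and 47.5% of all tested genes. The medians were -0.14 in MPP4, -0.20 in MPP3 and -0.12 in LT-HSC, beside 0.00, 0.01 and 0.02 over all tested genes. These genes share the 3 mice of each genotype and are not independent of one another, so the counts are a description. Several marker lists of other cell types also lay mostly below 0. In MPP4 these were 7 of 8 plasmacytoid dendritic cell genes, 8 of 10 macrophage genes and 10 of 14 mature B and plasma cell genes. In MPP3 every such list did. Below 0 were 11 of 13 neutrophil, 10 of 14 mature B and plasma cell and 6 of 7 B cell precursor genes. So were 7 of 10 macrophage, 5 of 7 T and NK cell and 5 of 8 plasmacytoid dendritic cell genes. In LT-HSC they were 13 of 13 neutrophil, 11 of 14 mature B and plasma cell and 5 of 7 B cell precursor genes. Of the 5 sorting gate genes, 4 lay below 0 in MPP4, 4 in MPP3 and 5 in LT-HSC. In MPP4 and LT-HSC other lists were more even. In MPP4, 8 of 13 neutrophil, 4 of 7 T and NK cell and 4 of 7 B cell precursor genes lay below 0. In LT-HSC, 3 of 7 T and NK cell, 3 of 8 plasmacytoid dendritic cell and 6 of 10 macrophage genes did. Above 0 in these lists were 3, 2 and 4 genes. Summed over the 32 genes, MPP4 KO had 3692, 3197 and 3047 CPM and MPP4 WT 4167, 3406 and 3292 CPM, which overlapped. MPP3 KO had 1715, 1674 and 1740 CPM and MPP3 WT 1884, 1747 and 1803 CPM. LT-HSC KO had 1320, 1340 and 1371 CPM and LT-HSC WT 1398, 1422 and 1467 CPM. In MPP3 and LT-HSC every KO sum lay below every WT sum, in MPP3 by a narrow margin. Without the 5 most abundant genes the MPP3 sums still did not overlap, at 709.2 to 759.5 CPM in KO and 785.8 to 884 CPM in WT, whereas the LT-HSC sums did, at 573.6 to 672.4 CPM in KO and 663.3 to 720.5 CPM in WT.

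**Figure D3:**
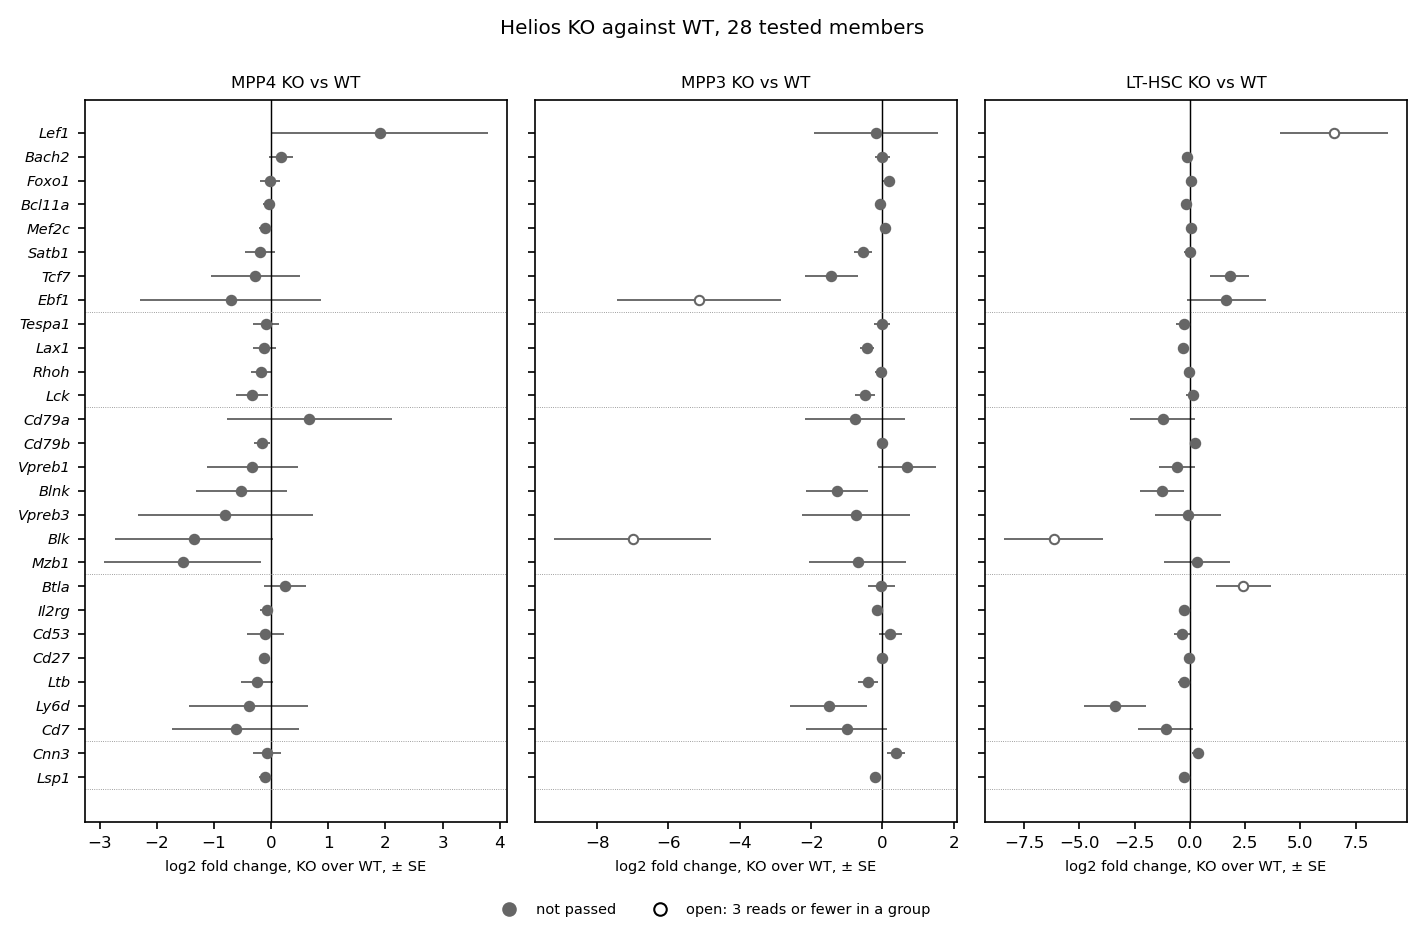
Log2 fold change of KO over WT for the 28 tested genes in MPP4, MPP3 and LT-HSC, with its standard error, in the order of roles used above and with a different horizontal scale in each panel. All points are grey because none passed, and open points had 3 reads or fewer in a group. The widest errors are those of the open points of Ebf1 and Blk in MPP3 and of Lef1 and Blk in LT-HSC. In MPP4 the widest is that of Lef1, a filled point. In MPP4 24 points lie left of 0, in MPP3 23 and in LT-HSC 17.

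In MPP4, 2 of the 28 tested genes had all KO libraries below all WT libraries (4.02% of all tested genes), and 1 was higher (3.96%). Cd79b had 70.2, 64.4 and 62.6 CPM in MPP4 KO against 72.2, 75.1 and 73.1 CPM in MPP4 WT, with a log2 fold change of -0.16 ± 0.14 (edgeR adjusted p = 1). Mzb1 had 0.82, 0.65 and 1.11 CPM in MPP4 KO against 2.57, 3.41 and 1.60 CPM in MPP4 WT. Cd79a was the higher one, at 0.26, 0.23 and 0.24 CPM in MPP4 KO and 0.15, 0.23 and 0.07 CPM in MPP4 WT, where KO 2 and WT 2 are equal to 2 decimals. The values of Satb1 overlapped, with 561, 426 and 394 CPM in MPP4 KO and 594, 464 and 520 CPM in MPP4 WT, and those of Lck did too, with 184, 102 and 117 CPM in KO and 228, 161 and 118 CPM in WT. Blnk spread widely in MPP4 KO, at 59.5, 9.01 and 19.6 CPM, on both sides of the WT libraries at 48.7, 36.4 and 41.6 CPM.

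Library number 1 stood high in MPP4 in both genotypes. For 11 of the 28 genes it was the highest library of its group in KO and in WT (Satb1, Tespa1, Lck, Blnk, Ly6d, Mef2c, Bach2, Cnn3, Cd53, Lsp1 and Cd7), beside 13.3% of all tested genes. Ly6d, an early marker of B-lineage specification, had 18.7 CPM in KO 1 and 3.25 and 1.79 CPM in KO 2 and 3, against 19.5 CPM in WT 1 and 8.94 and 2.73 CPM in WT 2 and 3. Whether the number marks a shared day or batch is not given in the labels, and libraries 2 and 3 alone also gave 0 members between KO and WT in MPP4.

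In MPP3, 7 of the 28 genes had all KO libraries below all WT libraries, as did 5.62% of all tested genes, and 1 had them above (5.01%). The 7 were Satb1, Tcf7, Blnk, Blk, Ly6d, Lax1 and Cd7. Satb1 had 80.9, 88.3 and 84.9 CPM in MPP3 KO against 139, 105 and 127 CPM in MPP3 WT, 68.3% of the WT mean, with a log2 fold change of -0.55 ± 0.26. Tcf7 had 22.3, 11.4 and 9.09 CPM in MPP3 KO against 50.9, 27.8 and 36.7 CPM in MPP3 WT, 37.2% of the WT mean, with a log2 fold change of -1.43 ± 0.75. For both genes the gap between the groups was smaller than the spread within MPP3 WT, and neither passed (edgeR adjusted p = 1 for each). The T and NK cell marker Trbc1 did not overlap either, with 3.77, 1.10 and 1.65 CPM in MPP3 KO against 6.66, 6.51 and 7.01 CPM in MPP3 WT (-1.63 ± 0.93, edgeR adjusted p = 1). The summed T and NK markers were likewise lower in every MPP3 KO library than in any MPP3 WT library, and their part in the Tcf7 difference was not tested. Lax1 had 26.0, 37.8 and 28.7 CPM in MPP3 KO against 44.6, 42.1 and 39.1 CPM in MPP3 WT, with -0.44 ± 0.20 (edgeR adjusted p = 1).

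The B-lineage genes of MPP3 were low in both genotypes. Blk, a B cell Src-family kinase, had 0 reads in MPP3 KO and 45 reads in MPP3 WT, at 1.22, 0.13 and 0.40 CPM, which makes it at least 16-fold lower in KO with a floor of 3 reads over the group. Its unadjusted p was 0.0076 and its edgeR adjusted p 0.895. Ebf1 had 0 reads in MPP3 KO and 12 reads in MPP3 WT, all in WT 1, at least 4.26-fold lower. Ly6d had 3.98, 1.41 and 1.12 CPM in MPP3 KO against 6.38, 7.81 and 4.38 CPM in MPP3 WT. Blnk had 1.83, 1.1 and 1.05 CPM in MPP3 KO against 2.01, 4.57 and 3.25 CPM in MPP3 WT, with KO 1 just under WT 1. The T and NK cell gene Cd7 had 1.31, 0.57 and 0.67 CPM in MPP3 KO against 1.38, 1.97 and 1.77 CPM in MPP3 WT. Cnn3 was the gene on the other side, with 30.6, 30.5 and 35.4 CPM in MPP3 KO against 27.97, 24.6 and 21.5 CPM in MPP3 WT (0.38 ± 0.25, edgeR adjusted p = 1). Cd2, a T cell adhesion receptor that was not tested, had 0 reads in MPP3 KO and 14 in MPP3 WT, 13 of them in WT 2, at least 4.97-fold lower with that library included. In MPP4 it had 18 reads in KO, all of them in KO 2, and 0 in WT. Of the 3 MPP3 libraries high in plasma cell transcripts, 1 was KO and 2 were WT, and the highest Blk and Tcf7 values were in WT 1, one of them. Without these 3 libraries, with 1 WT library left and taken to vary like the other groups, 0 members passed in MPP3, and the log2 fold change was -0.56 for Satb1, -1.84 for Tcf7 and -0.23 for Lax1 (edgeR adjusted p = 1 for each).

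In LT-HSC, where 14 of the 32 genes reached a mean of 10 CPM in KO and 14 in WT, 1 of 28 had all KO libraries below all WT libraries (6.14% of all tested genes) and 0 had them above (9.15%). That gene was Bcl11a, with 166, 179 and 169 CPM in LT-HSC KO against 189, 194 and 199 CPM in LT-HSC WT (-0.18 ± 0.10, edgeR adjusted p = 0.551). Il2rg, the common gamma chain of the receptors for interleukin 7 and its relatives, had 66.8, 50.9 and 56.0 CPM in LT-HSC KO against 63.9, 74.7 and 71.8 CPM in LT-HSC WT (-0.28 ± 0.11, edgeR adjusted p = 0.378). Lsp1 had 123, 139 and 167 CPM in LT-HSC KO against 160, 181 and 182 CPM in LT-HSC WT (-0.29 ± 0.12, edgeR adjusted p = 0.403). In both, a single KO library reached into the WT range, KO 1 for Il2rg and KO 3 for Lsp1.

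The widest LT-HSC differences came from single libraries. Lef1 had 35 reads in LT-HSC KO and 0 in LT-HSC WT, at least 14.4-fold higher, but KO 1 alone held 1.20 CPM while KO 2 and 3 had 0 and 0.05 CPM. Blk had 0 reads in LT-HSC KO and 24 in LT-HSC WT, at least 6.48-fold lower, all of them in WT 2 at 1 CPM. Ly6d had 0, 0.18 and 0 CPM in LT-HSC KO against 0.04, 0.21 and 1.76 CPM in LT-HSC WT, so that WT 3 set its log2 fold change of -3.39 ± 1.41 (edgeR adjusted p = 0.385). WT 2 and WT 3 are also the libraries with neutrophil transcripts. Without them, with 1 WT library left and taken to vary like the other groups, 0 members passed in LT-HSC, and the log2 fold change of Ly6d was 0.61 (edgeR adjusted p = 0.963) and that of Il2rg -0.16 (0.692). Tcf7 leaned the other way from MPP3, with 1.94, 0.50 and 1.60 CPM in LT-HSC KO against 0, 0 and 0.99 CPM in LT-HSC WT (1.80 ± 0.87, edgeR adjusted p = 0.459). All of its LT-HSC WT reads were in WT 3. With 1 library left out at a time, its log2 fold change ran from 1.3 to 8.14 (lowest edgeR adjusted p = 0.0532). Without WT 2 and WT 3 it was 8.15, and that of Satb1 was 0.98. Cd79b overlapped between the genotypes, at 45.3, 50.6 and 56.7 CPM in LT-HSC KO and 38.5, 47.5 and 45.02 CPM in LT-HSC WT.

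**Figure D4:**
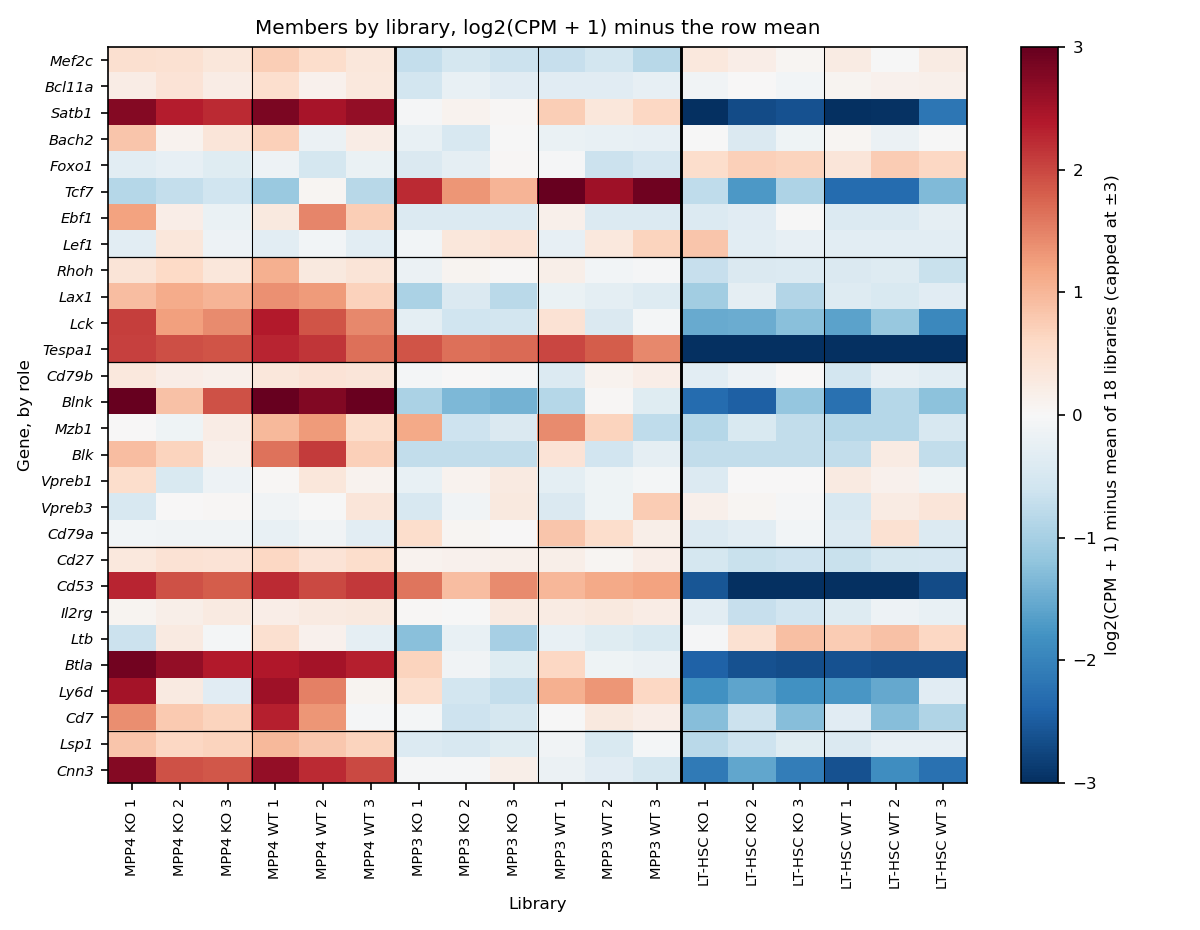
Level of the 28 tested genes (rows, by role) in the 18 libraries (columns), as log2(CPM + 1) minus the mean of the row, capped at 3 in either direction. Thick lines separate MPP4, MPP3 and LT-HSC and thin lines KO from WT. The populations differ more than the genotypes: Satb1, Tespa1, Cd53 and Btla are blue in all 6 LT-HSC libraries, and the Tcf7 row is darkest in the 3 MPP3 WT libraries and paler in the 3 MPP3 KO libraries.

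No member passed a test of the difference in KO effect between populations. For MPP4 against LT-HSC, MPP3 against LT-HSC and MPP4 against MPP3, 0 of 28 passed the test of the difference, as did 0% of all tested genes (edgeR quasi-likelihood test), and 0, 3 and 1 of 28 had an unadjusted p under 0.05, beside 6.65%, 3.69% and 3.23% of all tested genes. The 3 were Tcf7, Ebf1 and Lef1. For Tcf7, with means of 14.3 CPM in MPP3 KO and 38.4 CPM in MPP3 WT against 1.35 CPM in LT-HSC KO and 0.33 CPM in LT-HSC WT, the KO effect in MPP3 minus that in LT-HSC was -3.22 ± 1.15 on the log2 scale (unadjusted p = 0.0124, edgeR adjusted p = 1). DESeq2 and limma voom also called 0 members.

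A further list held 52 other genes of early lymphoid cells, of which 46 were tested. This list too was chosen with earlier results of these data known, so its shares are a description. In MPP4 over LT-HSC 30 rose and 2 fell, where 14.1% and 13.1% of all tested genes did. In MPP3 over LT-HSC 21 rose and 3 fell (9.68% and 7.66% of all tested genes). In MPP4 over MPP3 16 rose and 1 fell (2.19% and 2.62%). Dntt, the terminal transferase of early lymphoid progenitors, had 3610, 3076 and 2458 CPM in MPP4 WT against 2.50, 1.54 and 0 CPM in LT-HSC WT (11.34 ± 0.83, edgeR adjusted p = 5.42e-08). Ccr9, a chemokine receptor of thymus-homing progenitors, had 123, 55.6 and 12.0 CPM in MPP4 WT against 0.12, 0.08 and 0.02 CPM in LT-HSC WT (9.85 ± 0.99, edgeR adjusted p = 1.69e-06). Ccr9 is also on the list of plasmacytoid dendritic cell genes. Of the 8 tested on that list, 5 rose in MPP4 over LT-HSC and 0 fell, with a median log2 difference of 6.47. The part of such cells in the Ccr9 levels was not tested. Zap70, the kinase that acts with Lck, had 220 reads in MPP4 WT and 0 in LT-HSC WT, at least 83.5-fold higher.

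Between KO and WT, 0 of these 46 genes passed in MPP4 or MPP3 by edgeR's quasi-likelihood test. The median log2 fold change was -0.15 in MPP4, -0.30 in MPP3 and -0.21 in LT-HSC. Of the 46 genes, 32, 37 and 28 lay below 0, beside 48.5%, 48.8% and 47.5% of all tested genes. The recombinase gene Rag1 had 0 reads in MPP3 KO and 32 in MPP3 WT, at least 11.4-fold lower (edgeR adjusted p = 0.66), and Spib, a factor of B and plasmacytoid dendritic cells, had 0 reads in MPP3 KO and 25 in MPP3 WT (adjusted p = 1). Rag2, the partner of Rag1, had 29.3, 16.2 and 23.3 CPM in MPP4 KO against 52.5, 49.9 and 43.5 CPM in MPP4 WT, without overlap (-1.08 ± 0.61, edgeR adjusted p = 1). Cd28, the T cell costimulatory receptor, had 0.56, 0.46 and 0.04 CPM in MPP4 KO against 0.07, 3.51 and 3.38 CPM in MPP4 WT, where WT 1 lay among the KO values (-2.70 ± 1.32, edgeR adjusted p = 1).

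All coordinates are mm10. Satb1 lies on chromosome 17 from 51736187 to 51833290 on the minus strand and Tcf7 on chromosome 11 from 52252371 to 52283014 on the minus strand. Tespa1 lies on chromosome 10 from 130322870 to 130364111 and Btla on chromosome 16 from 45224315 to 45257670, both on the plus strand. Tespa1, Btla, Blk, Blnk, Cd79b and Lax1 are overlapped by no other annotated gene, whereas Satb1 is overlapped by 5 annotated genes on its own strand and 1 on the other. Cd27 lies within Vamp1 and Lsp1 overlaps Prr33, each on the opposite strand, so their counts are uncertain.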

How the data were processed

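Read counts of 18 libraries were analysed, 3 in each of 6 groups taken from the sample titles. Per the labels' protocols, cDNA was made with SMART-Seq v4, which does not keep the strand of the RNA, and libraries with Nextera XT. Per the submitters' processing notes, bcl2fastq 2.17.1.14 and DESeq were used and the build was mm10. No source used here gives the aligner, the counter or the annotation, so overlapping or antisense genes and near-identical copies are uncertain.

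The authors deposited whole-number counts per Ensembl gene, which were the input to all tests. The authors also deposited a normalized signal, which is the count divided by 1 size factor per library (0.8118 to 1.723), and that signal per kb of median transcript length, itself a deposited column. The log2 fold changes of KO over WT and their p-values and adjusted p-values are columns of the authors' deposited table, and their model is not stated.

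Genes were filtered with filterByExpr, scaled by TMM and tested in edgeR 4.0.16 under R 4.3.3 (glmQLFit and glmQLFTest), with 1 mean per group over all 18 libraries (common dispersion 0.164) and Benjamini-Hochberg adjustment within each contrast at 0.05. A standard error is the log2 fold change divided by the root of its F statistic. CPM was computed from the TMM-scaled library totals. A group with 0 reads was set to a floor of 3 reads over the group to give a bound on the fold, and floors and exact intervals cover counting error alone. DESeq2 1.42.0, limma 3.58.1 voom, other scaling, no filter, replicate blocks, single populations and left-out libraries were the alternatives. The code was tested on simulated counts with known changes. These were set in genes with many reads and with less spread than these data, so genes with few reads were not covered.

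All 32 members are accounted for. Values per library are given for members that passed between KO and WT (none did), for the 2 of each role with the smallest p there, and for the 2 of each role with the largest change among those that passed between MPP4 and LT-HSC in WT. Of the other lymphoid genes the same rule took up to 2 per KO comparison and 3 between MPP4 and LT-HSC, and further genes were named after their values were seen. Some results among the other genes are not reported here, the count that passed between KO and WT in LT-HSC included. The members, roles and lists were chosen with earlier results of these data known.

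Samples of 1 mouse share an animal by the series' design, and deviations from the group means correlated at 0.04 to 0.18 over 18 such pairs. KO and WT libraries are linked in the labels only by a number, and whether it marks a shared day or batch is not given.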

Additional observations from a re-analysis of the deposited data

How the results depend on the processing

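In KO against WT the count of members that passed was 0 in every population under all alternatives run, with the libraries left out 1 at a time included. Between WT populations, leaving out 1 library gave 15 to 18 members for MPP4 over LT-HSC, 12 to 15 for MPP3 over LT-HSC and 8 to 12 for MPP4 over MPP3. Cd79a, which did not pass between MPP4 and LT-HSC, ran from -1.43 to 5.10 on the log2 scale, the upper value without LT-HSC WT replicate 2 (adjusted p = 0.0397), whose 0.83 CPM was the only Cd79a signal of that group. Counts over all genes moved more. In KO against WT, leaving out 1 library gave 1 to 5 genes in MPP4, 1 to 2 in MPP3 and 2 to 14 in LT-HSC. Between populations it gave 3459 to 3889 genes for MPP4 over LT-HSC, 1589 to 2318 for MPP3 over LT-HSC and 465 to 651 for MPP4 over MPP3, and for the differences in KO effect 0 to 2, 0 to 0 and 0 to 2. No filter gave 7 genes in MPP4 and 2 in MPP3. DESeq2 gave 36, 35 and 184 genes in MPP4, MPP3 and LT-HSC, 1189 for MPP4 over MPP3, and 32, 4 and 11 for the effect in MPP4 minus LT-HSC, MPP3 minus LT-HSC and MPP4 minus MPP3. Limma voom gave 2 in MPP3 and 33 in LT-HSC. The replicate block by number gave 20 in LT-HSC and by mouse 1 for the effect in MPP4 minus LT-HSC. Each population fitted alone gave 1 in MPP4 and 5 in LT-HSC. The following alternatives, 3 in all, were chosen after seeing the data. Without the 3 plasma-high MPP3 libraries there were 1127 genes for MPP3 over LT-HSC, 214 for MPP4 over MPP3 and 7 members there. Without the 2 neutrophil-high LT-HSC libraries there were 77 in LT-HSC, 1640 for MPP3 over LT-HSC, and 30 and 15 for the effects against LT-HSC. Libraries 2 and 3 alone gave 7, 4 and 19 in MPP4, MPP3 and LT-HSC. The cause of these shifts was not tested. KO and WT libraries of the same number correlated at 0.01 to 0.10 over 9 pairs, and those of different numbers at -0.09 to 0.09 over 18 pairs. The block by number changed no member's call between KO and WT.

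Members below about 1 CPM rest on few reads, often from a single library.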

Other observations

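Il7r, the receptor subunit for interleukin 7 and a gene outside the 32, was named after its values were seen. It had 81.3, 15.8 and 16.9 CPM in MPP4 KO against 71.2, 40.1 and 28.2 CPM in MPP4 WT, and 1.97, 0.04 and 3.33 CPM in MPP3 KO against 11.8, 6.80 and 4.34 CPM in MPP3 WT. In MPP4 library 1 was the highest in both genotypes, and in MPP3 all KO libraries lay below all WT libraries. Il7r did not pass in either population (edgeR adjusted p = 1 for each).

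Sdc1, which encodes the plasma cell marker syndecan-1 and was likewise named after its values were seen, had 71.6, 64.2 and 75.1 CPM in MPP4 KO against 171, 117 and 153 CPM in MPP4 WT. In MPP3 it had 13.4, 5.90 and 5.50 CPM in KO against 21.4, 14.0 and 22.5 CPM in WT. The groups did not overlap in either population, and Sdc1 passed in neither (edgeR adjusted p = 0.607 in MPP4 and 0.495 in MPP3), while Jchain, another plasma cell gene, stayed at or under 1.19 CPM in all 6 MPP4 libraries.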
